A study of Homo sapiens with 12 samples.

Results

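The hemidesmosome genes described here are COL17A1, LAMA3, LAMB3, ITGA6, ITGB4, DST, PLEC and CD151. They were taken by gene name from a count table of 60106 genes, and all 8 were found, each on 1 row. The genes were chosen by their role in the hemidesmosome and on their measured fold changes with FOXA1 knockdown in these same libraries. That response is therefore given for the 8 genes as values with their errors and with no p-value, and "called" is only the label that the fit across all genes gave them.

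The study made 12 RNA-seq libraries from prostate cancer cells of 2 lines, in 4 groups of 3. PC3, an established line, received 20 nM of a non-targeting siRNA (NSI) or of an siRNA against the pioneer transcription factor FOXA1 (siFOXA1), in RPMI medium. VCaP, another established line, received the same 2 kinds of siRNA at 40 nM in DMEM. All cells were transfected and lysed after 72 hours, and both media held foetal calf serum. PC3 libraries came from a stranded mRNA kit and were counted without regard to strand, and VCaP libraries came from a total RNA kit and were counted on the reverse strand. A difference between the lines cannot be told apart from dose, medium, kit and strand counting, and no label says whether the 3 replicates were separate cultures, so the spread between them may be technical.

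Hemidesmosomes are junctions that rivet the base of an epithelial cell to the basement membrane. The transmembrane collagen XVII, encoded by COL17A1, and the integrin pair α6β4, encoded by ITGA6 and ITGB4, span the membrane. They bind laminin-332 outside the cell, a trimer whose α3 and β3 chains come from LAMA3 and LAMB3, and the plakins plectin (PLEC) and BP230 (an isoform of DST) inside it, which hold keratin filaments. CD151 is a tetraspanin that binds laminin-binding integrins. In the normal prostate these junctions belong to basal cells, which rest on the basement membrane, rather than to the luminal cells above them.

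On GRCh37, the build of the counts, the genes lie at chr10:105791044-105845760 on the minus strand (COL17A1), chr18:21269407-21535030 on the plus strand (LAMA3), chr1:209788215-209825811 on the minus strand (LAMB3) and chr2:173292146-173371010 on the plus strand (ITGA6). ITGB4 lies at chr17:73717408-73753899 on the plus strand, DST at chr6:56322785-56716714 on the minus strand and CD151 at chr11:832843-838835 on the plus strand.

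The stretches before annotated starts are shown for the 3 genes of the set that differed most between siFOXA1 and NSI in PC3. RefSeq's table of starts on GRCh38.p14 matched 5 of the 8 genes (COL17A1, DST, ITGA6, LAMA3 and LAMB3), with 10 windows of 250 bases before a start. ITGB4, PLEC and CD151 had no entry in it. For COL17A1 and LAMB3 the outermost window is printed 5′ to 3′, as far as no exon of the annotation used for counting covers it: 128 bases at chr10:104086003-104086130 on the minus strand, and 209 bases at chr1:209652467-209652675 on the minus strand.
COL17A1: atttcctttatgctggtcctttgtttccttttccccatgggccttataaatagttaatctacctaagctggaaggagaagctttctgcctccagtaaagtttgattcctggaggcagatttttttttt
LAMB3: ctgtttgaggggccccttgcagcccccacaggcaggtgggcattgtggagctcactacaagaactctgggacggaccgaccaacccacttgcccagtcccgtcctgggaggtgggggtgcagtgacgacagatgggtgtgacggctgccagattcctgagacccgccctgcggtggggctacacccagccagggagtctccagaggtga
The 2 stretches differ in base composition, with 39.1% G and C for COL17A1 and 64.6% for LAMB3.

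In all 10 windows, both strands were searched for the forkhead word TGTTTAC, for its variants TATTTAC and also TGTTTGC, and for the AP-1 word TGANTCA, where N is any base. None of these words overlaps another in the matches found. No window held a forkhead word, and 8.27% of all 35116 windows in the table held at least 1 of the 3. The AP-1 word, which 6.57% of all windows held, was found in 1 window of LAMA3 and in the innermost window of LAMB3. The LAMA3 window lies 183567 bases into the gene, on the plus strand, before an inner start. These matches are shown with 10 bases on either side and the matched letters in capitals, the LAMB3 one at chr1:209651425-209651451 and the LAMA3 ones at chr18:23872885-23872911 and chr18:23872941-23872967. They begin 67 bases before the start for LAMB3 and 125 and 69 bases before it for LAMA3.
LAMB3 match: tcagccactcTGACTCAttcactttgg
LAMA3 first match: tggcacaggcTGACTCAtgtgtgaagt
LAMA3 second match: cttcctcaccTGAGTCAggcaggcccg
A match of letters is a description and no binding was measured here.

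Library totals were 123140099 to 188226483 counts in PC3 and 48187047 to 59839211 in VCaP. FOXA1 itself was 296, 247 and 261 CPM (counts relative to the library's total, scaled by the fit's library factors) in the PC3 NSI libraries and 165, 184 and 164 in the siFOXA1 libraries. In VCaP it was 458, 468 and 544 with NSI and 85.2, 73.6 and 83.1 with siFOXA1. The remaining level was 63.8% of NSI in PC3 (log2 fold change -0.65, SE 0.10, adjusted p = 0.0022) and 16.5% in VCaP (log2 fold change -2.60, SE 0.09, adjusted p = 1.84e-07), by edgeR's quasi-likelihood test with Benjamini-Hochberg adjustment. With 3 libraries against 3, an exact two-sided permutation test of this single gene gave p = 0.1 in each line, the smallest it can give.

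COL17A1, the collagen that links the cell's plakins to laminin, was higher with siFOXA1 in both lines. In PC3 it was 18.1, 19.1 and 16.8 CPM with NSI and 32.4, 32.5 and 34.1 CPM with siFOXA1. The groups lay apart, and the log2 fold change was 0.88 (SE 0.09). In VCaP it was 0.212, 0.199 and 0.139 CPM with NSI, which is 11, 10 and 8 counts, and 21.2, 22.1 and 22.2 CPM with siFOXA1, which is 1067, 1113 and 1166 counts. The log2 fold change in VCaP was 6.89 (SE 0.13), or 119-fold, and the gene stood at rank 6 of 22925 genes ordered from the highest fold change down. The NSI level in VCaP rested on at most 11 counts per library, whereas the level with siFOXA1 lay between those of the 2 PC3 groups. Each SE is computed back from the test's F statistic. With so few NSI counts it can understate the error of every COL17A1 difference that uses this group. The VCaP change exceeded the PC3 change by 6.04 on the log2 scale (SE 0.16). In bulk libraries such as these, more cells that make a transcript and more transcript per cell cannot be told apart.

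**Figure D1:**
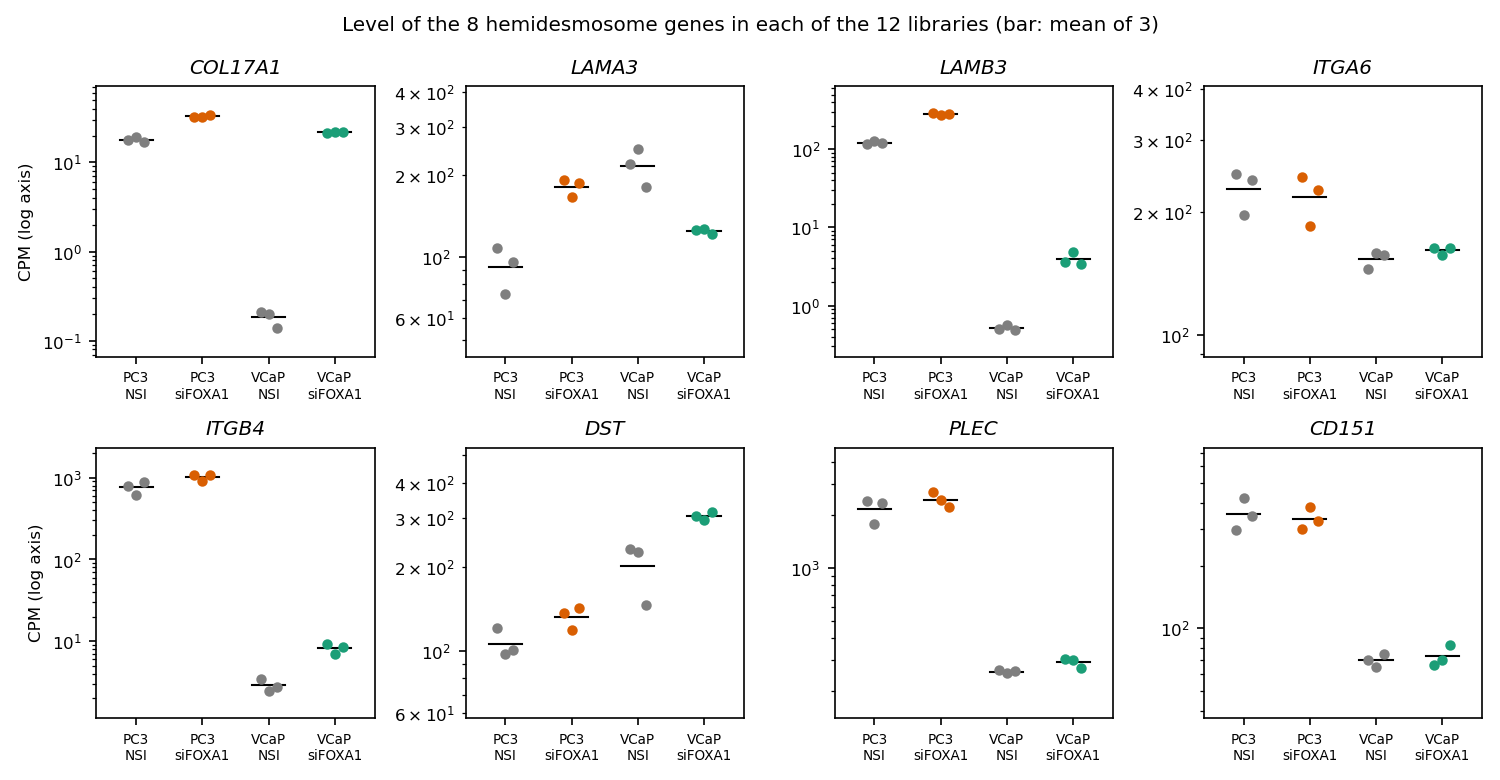
Level of each of the 8 genes in every library, in CPM on a log axis, with 3 points per group (NSI in grey, siFOXA1 in colour) and a bar at the mean. COL17A1 and LAMB3 lie higher with siFOXA1 in both lines, LAMA3 lies higher in PC3 and lower in VCaP, and ITGA6 and CD151 overlap between siRNAs in both.

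LAMA3 and LAMB3, which encode chains of the α6β4 ligand laminin-332, were both higher with siFOXA1 in PC3 and differed in direction in VCaP. LAMB3 was 118, 128 and 119 CPM in PC3 with NSI and 292, 272 and 280 CPM with siFOXA1. This was the largest fold change of the 8 genes in PC3, at 1.21 on the log2 scale (SE 0.08). In VCaP LAMB3 was 0.501, 0.558 and 0.486 CPM with NSI (26, 28 and 28 counts) and 3.57, 4.81 and 3.43 CPM with siFOXA1 (180, 242 and 180 counts). Its groups lay apart there too, with a log2 fold change of 2.93 (SE 0.19), but the level reached in VCaP stayed far below that of either PC3 group.

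LAMA3 went in opposite directions in the 2 lines. In PC3 it was 108, 73.5 and 95.9 CPM with NSI and 191, 166 and 186 CPM with siFOXA1, a log2 fold change of 0.97 (SE 0.14). In VCaP it was 219, 248 and 180 CPM with NSI and 126, 127 and 122 CPM with siFOXA1, a log2 fold change of -0.79 (SE 0.11). The 2 groups lay apart in each line, and the VCaP change minus the PC3 change was -1.74 (SE 0.20). LAMA3 was the only one of the 8 that was lower with siFOXA1 with its groups apart.

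In the integrin pair ITGB4 was higher with siFOXA1 and ITGA6 overlapped between siRNAs. ITGA6, the α6 chain, was 247, 196 and 239 CPM in PC3 with NSI and 243, 184 and 226 CPM with siFOXA1. In VCaP it was 145, 159 and 157 CPM with NSI and 163, 157 and 163 CPM with siFOXA1. The groups overlapped in both lines, and the 95% intervals of the log2 fold change were -0.36 to 0.23 in PC3 and -0.07 to 0.21 in VCaP. ITGB4, the β4 chain, whose long cytoplasmic tail binds plectin, was 796, 610 and 883 CPM in PC3 with NSI and 1072, 923 and 1080 CPM with siFOXA1. These groups lay apart, with a log2 fold change of 0.43 (SE 0.14), and the gene was not called in PC3. In VCaP ITGB4 was 3.49, 2.47 and 2.74 CPM with NSI and 9.25, 7.02 and 8.53 CPM with siFOXA1, a log2 fold change of 1.51 (SE 0.15). The VCaP change exceeded the PC3 change by 1.11 (SE 0.23), from a level in VCaP that was a small fraction of that in PC3.

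The plakins showed smaller differences than COL17A1 or LAMB3. DST was 121, 97.7 and 101 CPM in PC3 with NSI and 137, 119 and 142 CPM with siFOXA1, where 1 NSI library lay above the lowest siFOXA1 library (log2 fold change 0.32, SE 0.11). In VCaP DST was 232, 226 and 147 CPM with NSI and 304, 293 and 315 CPM with siFOXA1 (log2 fold change 0.59, SE 0.15), and the third NSI library was the lowest. The counts sum all isoforms of DST, so the epithelial BP230 isoform cannot be told apart from the neuronal and muscle ones. PLEC, at chr8:144989315-145050902 on the minus strand of GRCh37, was 2415, 1773 and 2341 CPM in PC3 with NSI and 2695, 2448 and 2211 CPM with siFOXA1 (log2 fold change 0.17, SE 0.13). In VCaP PLEC was 261, 251 and 259 CPM with NSI and 305, 298 and 270 CPM with siFOXA1, groups that lay apart by a small margin (log2 fold change 0.18, SE 0.07) and were not called.

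CD151, the tetraspanin partner of laminin-binding integrins, overlapped between siRNAs in both lines. It was 298, 421 and 346 CPM in PC3 with NSI and 302, 383 and 326 CPM with siFOXA1, and the 95% interval of the log2 fold change was -0.40 to 0.25. In VCaP it was 70.6, 64.7 and 74.8 CPM with NSI and 66.3, 70.4 and 83.2 CPM with siFOXA1, with an interval of -0.14 to 0.27. These intervals leave room for changes of about the size seen for PLEC. Opposite-strand genes overlap 2.47% of the exon bases of CD151 and 6.01% of those of ITGA6, and PC3 reads from them could not be separated.

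In PC3, 3 of the 8 genes were called higher and 0 lower (COL17A1, LAMA3 and LAMB3), where 27.0% of all 26435 genes tested were called, 15.0% higher and 12.1% lower. In VCaP, 4 were called higher (COL17A1, LAMB3, ITGB4 and DST) and 1 lower (LAMA3), where 45.8% of all 22925 genes were called, 22.5% higher and 23.3% lower. The groups lay apart for 4 of 8 genes in PC3, beside 44.4% of all genes, and for 6 of 8 in VCaP, beside 55.9%. The median log2 fold change of the 8 was 0.37 in PC3 and 0.38 in VCaP, beside 0.02 over all genes in each line. For the difference between the lines, 3 were called higher in VCaP and 1 lower, beside 22.2% of 30425 genes called (11.3% higher and 11.0% lower). These contrasts chose the set, so nothing is read from the counts. With the replicate number as a block, which the main fit left out, 5 of the 8 were called in PC3, because ITGB4 (0.44) and DST (0.32) passed as well. Other settings moved these calls too. ITGB4 in PC3 was called in 6 of 16 alternatives, among them without the third NSI library (0.54). DST in PC3 was called in 3 of 16, among them without the first NSI library (0.41), and PLEC in VCaP in 3 of 16, among them without the third siFOXA1 library (0.23).

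**Figure D2:**
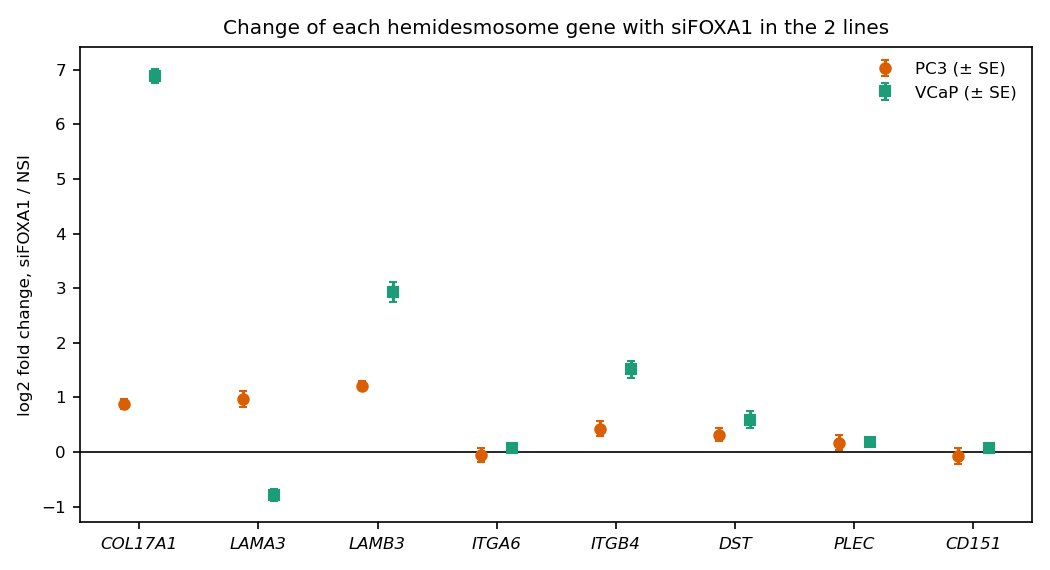
Log2 fold change of siFOXA1 over NSI for each of the 8 genes in PC3 (circles) and VCaP (squares), with bars of 1 SE. The SE is computed back from the test, and the bar of COL17A1 in VCaP can be too short. COL17A1 in VCaP stands at 6.89, LAMA3 falls on opposite sides of 0 in the 2 lines, and ITGA6 and CD151 lie near 0 in both.

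Without FOXA1 knockdown the 2 lines already held these genes at very different levels. The NSI libraries compared here also entered the fold changes on which the genes were chosen. The p-values of this baseline contrast are therefore not independent of that choice. In the NSI libraries ITGB4 was 268-fold lower in VCaP than in PC3 (log2 difference -8.07, SE 0.21, adjusted p = 1.59e-14, edgeR), LAMB3 240-fold lower (-7.91, SE 0.15, adjusted p = 9.55e-16) and COL17A1 100.0-fold lower (-6.64, SE 0.14, adjusted p = 1.64e-15). PLEC (-3.11, SE 0.14), CD151 (-2.37, SE 0.13) and ITGA6 (-0.60, SE 0.12) were lower in VCaP by less, and LAMA3 (1.19, SE 0.14) and DST (0.89, SE 0.15) were higher. All 8 were called, 2 higher and 6 lower in VCaP, but so were 86.9% of all 30425 genes tested (42.7% higher and 44.2% lower), so the count says little about these genes. Line, dose, medium, kit and strand counting cannot be told apart in this contrast.

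Levels of different genes were set side by side as CPM per kilobase of exon. This length joins the exons of all isoforms of a gene, 30804 bases for DST. Where the cells make shorter isoforms, the level per kilobase is too low. CD151 was the highest of the 8 in all 4 groups, at 214 ± 37.4 (SD, n = 3) in PC3 with NSI and 42.2 ± 3.06 in VCaP with NSI. In PC3 with NSI the order down from CD151 was PLEC (132 ± 21.4), ITGB4 (123 ± 22.6), ITGA6 (38.9 ± 4.70), LAMB3 (27.0 ± 1.22), LAMA3 (8.37 ± 1.57), DST (3.46 ± 0.400) and COL17A1 (2.97 ± 0.189). PLEC and ITGB4 overlapped there, and all other neighbours in the order lay apart. With siFOXA1 LAMB3 (62.7 ± 2.16) stood above ITGA6 (37.3 ± 5.15), and COL17A1 (5.45 ± 0.161) above DST (4.31 ± 0.388).

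In VCaP with NSI the order was CD151, ITGA6 (26.3 ± 1.23), LAMA3 (19.5 ± 3.09), PLEC (15.6 ± 0.333), DST (6.54 ± 1.54), ITGB4 (0.469 ± 0.0849), LAMB3 (0.115 ± 0.00843) and COL17A1 (0.0303 ± 0.00643), and no neighbours overlapped. With siFOXA1 COL17A1 (3.61 ± 0.0943) stood above ITGB4 (1.34 ± 0.184) and LAMB3 (0.877 ± 0.169), and again no neighbours overlapped. By this measure COL17A1 was the lowest of the 8 in both NSI groups and in neither siFOXA1 group. In PC3 with siFOXA1 it stood above DST alone, so its place there rests on the joined exon length of DST.

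Pairs of the genes were compared within each library as ratios of CPM per kilobase. The ratio of LAMA3 to LAMB3 was 178, 181 and 151 in VCaP with NSI and 14.3, 10.7 and 14.4 with siFOXA1. In PC3 it was 0.372, 0.234 and 0.329 with NSI and 0.267, 0.247 and 0.270 with siFOXA1, and the groups overlapped. LAMB3 transcripts were therefore scarcer than LAMA3 transcripts in every VCaP library and more abundant in every PC3 library. The ratio of ITGA6 to ITGB4 was 57.5 ± 12.2 (SD, n = 3) in VCaP with NSI and 20.9 ± 2.57 with siFOXA1, and 0.319 ± 0.0283 and 0.225 ± 0.0143 in PC3.

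The ratio of COL17A1 to ITGB4 was 0.0654 ± 0.0156 in VCaP with NSI and 2.74 ± 0.446 with siFOXA1. In PC3 this ratio was 0.0249 ± 0.00643 and 0.0330 ± 0.00260, with overlapping groups. These ratios are built from the changes given above and are not further evidence of them.

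**Figure D3:**
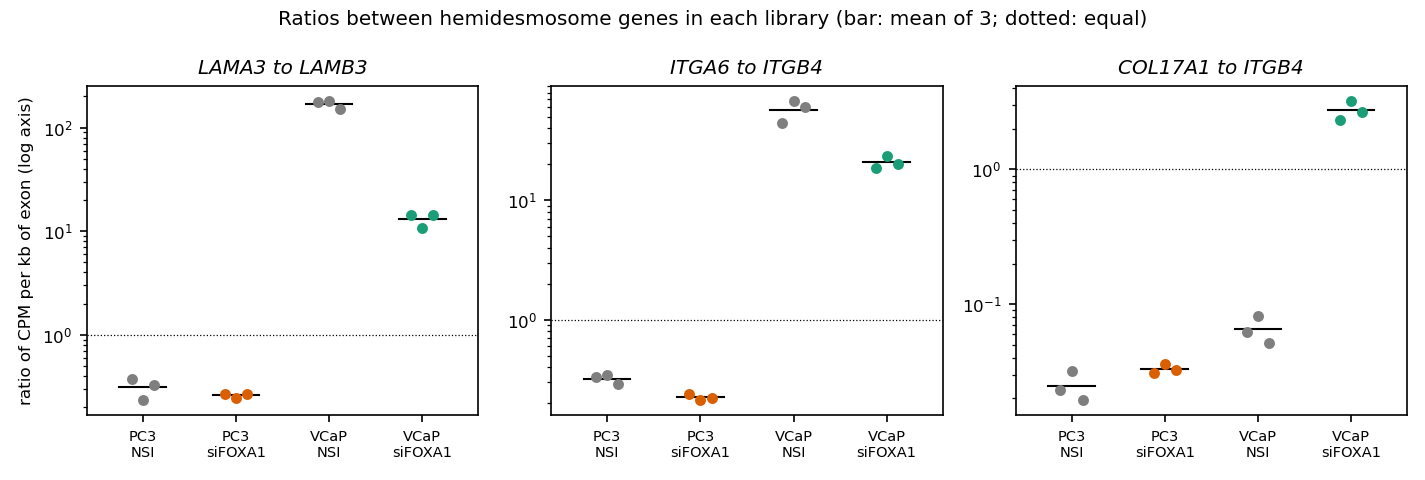
Ratio of CPM per kilobase of exon between 2 of the genes in each library, on a log axis, with a bar at the mean of 3 and a dotted line at equal levels. LAMA3 to LAMB3 and ITGA6 to ITGB4 lie below equality in all 6 PC3 libraries and above it in all 6 VCaP libraries, and COL17A1 to ITGB4 lies above it only in the 3 VCaP siFOXA1 libraries.

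Across the 12 libraries, the genes whose log2(CPM + 0.5) followed COL17A1 most closely among 17830 genes were DUSP3 (Pearson r 0.99), FOXO1 (0.99), SCNN1A (0.99), ADGRA2 (0.99) and CAP2 (0.98). DUSP3, which encodes a dual-specificity phosphatase, was 34.3 CPM in VCaP with NSI and 87.5 with siFOXA1, and 87.1 and 112 in PC3. SCNN1A, which encodes the α subunit of the epithelial sodium channel, was 0.236 and 4.53 CPM in VCaP, and 4.63 and 5.04 in PC3. As for COL17A1, the group mean of each was lowest in VCaP with NSI, although DUSP3 was well above 1 CPM there. Of the hemidesmosome genes LAMB3 came nearest, with r 0.77 at rank 892, followed by ITGB4 (0.70), PLEC (0.63), ITGA6 (0.61), CD151 (0.61), DST (-0.17) and LAMA3 (-0.52). The 12 libraries form 4 groups that share lines and treatments, so these coefficients describe the libraries and carry no test.

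The counts of this and the following lists stand beside 27.0% of all genes called in PC3 and 45.8% in VCaP. A list count near these shares says little about the list. Of 6 further genes that anchor this junction or its neighbours, 5 were tested in each line. In PC3, 2 rose and 0 fell: ITGA3, the α3 chain of the other laminin-332 receptor, from 804, 661 and 842 CPM to 1166, 1021 and 1095 CPM (log2 fold change 0.51, SE 0.11, adjusted p = 0.0107, edgeR), and ITGB1, its β1 partner (0.34, SE 0.10, adjusted p = 0.0332, edgeR). ITGA3 was no longer called without the first PC3 siFOXA1 library (0.46, adjusted p = 0.0556), and the ITGB1 call was lost in 7 of 16 alternatives, with adjusted p up to 0.130. In VCaP these 2 genes had log2 fold changes of 0.07 and -0.01, with adjusted p = 0.74 and 0.94 (ITGA3 passed without the third siFOXA1 library, at 0.24 and adjusted p = 0.0277), and the test of the difference between the lines gave adjusted p = 0.18 for ITGA3 and 0.12 for ITGB1 (edgeR). With the replicate block both differences passed, at -0.45 for ITGA3 (adjusted p = 0.0217) and -0.33 for ITGB1 (adjusted p = 0.0299), and ITGB1 also passed with DESeq2's test (adjusted p = 0.0323) and with library size alone (0.0448).

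COL7A1, the collagen of the anchoring fibrils beneath the basement membrane, did not pass in either line (0.16 and 0.13), and nor did ERBIN, a binding partner of β4 integrin and BP230 (0.13 and -0.17), except that ERBIN passed in VCaP without the third NSI library (-0.23, adjusted p = 0.0435, edgeR) and with the replicate block (-0.18, adjusted p = 0.0453). KRT14, a keratin of basal cells, fell in VCaP from 3.06, 2.25 and 1.56 CPM to 1.39, 1.39 and 0.800 CPM (log2 fold change -0.94, SE 0.28, adjusted p = 0.0216, edgeR). That call was lost without the first VCaP NSI library (-0.69, adjusted p = 0.0796) or without the third siFOXA1 library (-0.72, adjusted p = 0.0558). In PC3 KRT14 held 17 counts over the 3 NSI libraries and 41 over the siFOXA1 libraries (adjusted p = 0.06, edgeR). KRT5, its filament partner, held 10, 14, 3 and 1 counts in PC3 NSI, PC3 siFOXA1, VCaP NSI and VCaP siFOXA1 and was not tested. In VCaP 0 genes of this list rose and 1 fell (KRT14).

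Of 17 further basement membrane genes, 5 rose and 1 fell in PC3, and of the 16 tested in VCaP 5 rose and 4 fell. COL4A6 and COL4A5, neighbouring collagen IV chains, rose in PC3 from 44.7 ± 0.981 to 83.5 ± 3.24 CPM (log2 fold change 0.90) and from 225 ± 26.8 to 355 ± 17.0 CPM (0.66). COL4A3 also rose there, at the low level of 0.0899 ± 0.0416 to 0.254 ± 0.0177 CPM (1.47, adjusted p = 0.0205, edgeR), and was not called without the first or without the third siFOXA1 library (adjusted p = 0.066 and 0.0676). In VCaP NID1, the linker nidogen-1, rose from 1.71 ± 0.116 to 6.92 ± 1.58 CPM (2.01), and FRAS1, which anchors embryonic epithelia, from 36.1 ± 4.05 to 102 ± 4.72 CPM (1.50). HSPG2, which encodes perlecan, fell there from 762 ± 138 to 279 ± 23.6 CPM (-1.45). The list's median log2 fold change was 0.16 in PC3 and -0.19 in VCaP.

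Among the 5 relatives of the plakins, 2 rose and 0 fell in PC3 and 3 rose and 1 fell in VCaP. MACF1, the spectraplakin closest to DST, rose in PC3 from 152 ± 26.9 to 223 ± 34.8 CPM (0.56), and EVPL, envoplakin, from 19.1 ± 2.45 to 25.8 ± 1.08 CPM (0.43), and each call was lost when single libraries were left out (up to adjusted p = 0.128 for MACF1 and 0.0782 for EVPL). PPL, periplakin, rose in VCaP from 6.83 ± 0.957 to 18.9 ± 1.57 CPM (1.47), whereas DSP, the plakin of desmosomes between cells, fell from 134 ± 3.12 to 83.3 ± 1.12 CPM (-0.68). EPPK1 rose slightly (0.39), a call lost without the first or the third NSI library (adjusted p = 0.127 and 0.104) or the third siFOXA1 library (0.0754), and with all 12 libraries in one fit (0.464).

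The 13 focal adhesion genes, which belong to the actin-linked adhesions, were split in both lines, with 2 higher and 5 lower in PC3 and 4 higher and 3 lower in VCaP. ITGA2, a collagen- and laminin-binding integrin chain, resembled LAMA3 in direction: it rose in PC3 from 116 ± 33.6 to 234 ± 37.3 CPM (1.02) and fell in VCaP from 9.41 ± 0.182 to 5.67 ± 0.204 CPM (-0.73), a difference of -1.72 (SE 0.26, adjusted p = 2.05e-04, edgeR). In PC3 FERMT2 (-0.97) and ITGB5 (-0.74) fell, and in VCaP PXN (1.18) and ZYX (0.61) rose.

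Of the 11 other tetraspanins, 3 rose and 1 fell in PC3, and of the 9 tested in VCaP 6 rose and 3 fell. TSPAN8, which like CD151 pairs with α6β4, rose in PC3 from 37.4 ± 8.89 to 65.1 ± 12.4 CPM (0.80) and fell in VCaP from 20.1 ± 2.37 to 8.08 ± 1.68 CPM (-1.31), a difference of -2.09 (SE 0.24, adjusted p = 1.76e-05, edgeR). The PC3 call for TSPAN8 was lost without the third NSI library (0.75, adjusted p = 0.0604). CD82 rose in PC3 (1.27) from 0.718 ± 0.234 CPM, and CD37 fell (-0.60), a call lost when any of 5 libraries was left out (adjusted p up to 0.0778). In VCaP TSPAN1 (1.04) and TSPAN3 (0.88) rose.

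Of the 11 genes that cut, hydroxylate or fold collagens such as collagen XVII, 6 rose and 0 fell in PC3, and 3 rose and 2 fell in VCaP. FURIN, a proprotein convertase, rose in PC3 from 43.6 ± 2.56 to 79.4 ± 3.10 CPM (0.86) and in VCaP from 109 ± 8.44 to 181 ± 2.46 CPM (0.73). PLOD2 (0.81) and P4HA2 (0.80), which hydroxylate lysine and proline, rose in PC3, though PLOD2 did not pass with all 12 libraries in one fit (adjusted p = 0.0664, edgeR). SERPINH1, a collagen chaperone, fell in VCaP from 13.6 ± 1.18 to 6.75 ± 0.635 CPM (-1.01), and P4HA1 rose there (0.71, adjusted p = 0.0239, edgeR), a call lost without the first or the second NSI library (adjusted p = 0.0846 and 0.0605) and with DESeq2's test (0.0723). Over the 6 lists, 20 genes rose and 7 fell of 62 tested in PC3 (43.5%, beside 27.0% of all genes), and 21 rose and 14 fell of 59 in VCaP (59.3%, beside 45.8%). The PC3 count of 27 called genes dropped to 15 without the first siFOXA1 library and to 15 without the third NSI library. The shares of all genes include genes at low levels. In fits of genes averaging at least 1 CPM, 2862 were called higher and 2563 lower of 16621 in PC3. In VCaP such fits called 4394 higher and 4481 lower of 16413. The lists were chosen with earlier results of these data known, so nothing is read from the shares over the 6 lists.

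**Figure D4:**
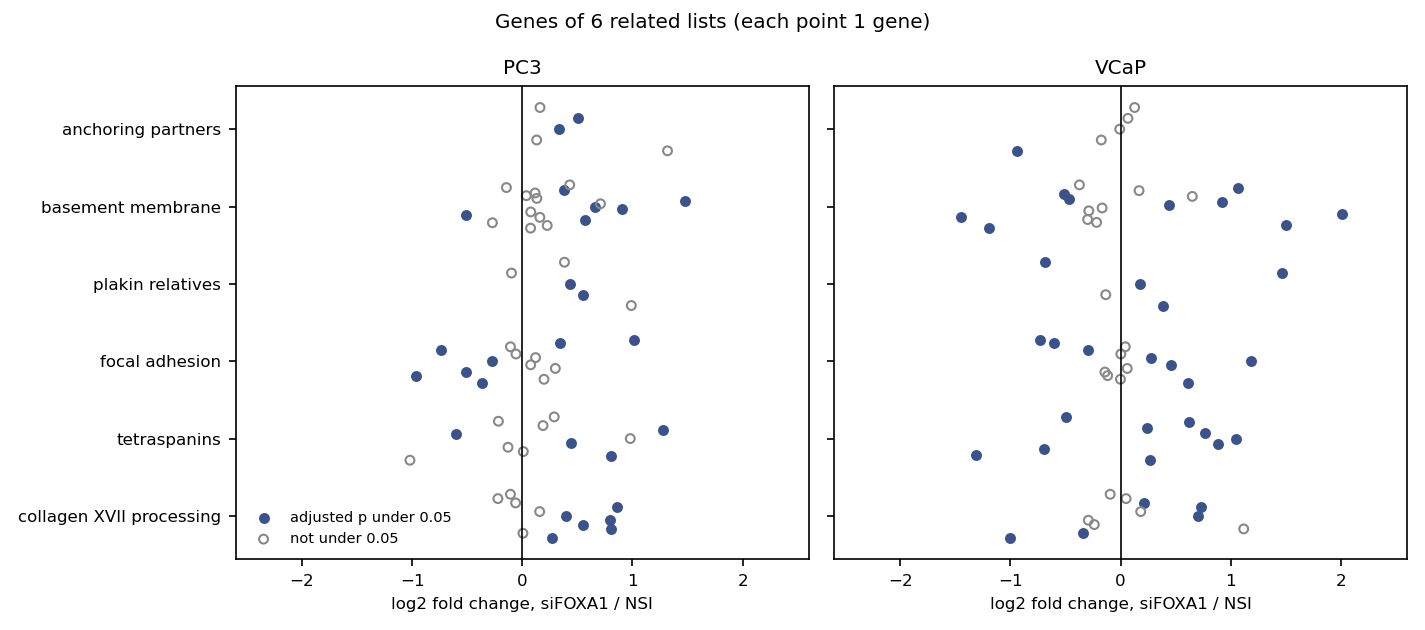
Log2 fold change of siFOXA1 over NSI for each tested gene of the 6 lists in PC3 (left) and VCaP (right), with filled points for an adjusted p under 0.05 by edgeR. Every list had genes called in both directions, except the anchoring list in both lines and the plakin and collagen-processing lists in PC3.

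Of the markers of basal prostate cells, the cells that carry hemidesmosomes in the normal gland, KRT15 in PC3 and KRT14 in VCaP were the only ones to average at least 1 CPM in any group. TP63, their master regulator, was 0.450 to 0.622 CPM in PC3 with NSI and 0.410 to 0.602 with siFOXA1 (log2 fold change 0.05, adjusted p = 0.88, edgeR), and 0.0963 to 0.120 and 0.0992 to 0.209 CPM in VCaP, where it was not tested. Summed over the 5 basal markers (KRT5, KRT14, KRT15, TP63 and NGFR), levels were 19.8 to 26.7 CPM in PC3 with NSI and 21.4 to 23.2 with siFOXA1, nearly all of it KRT15, and 1.77 to 3.43 and 1.45 to 2.25 CPM in VCaP. The sums hide single markers that moved in either direction, named here after their values were seen. KRT14 fell in VCaP, as given above, from 2.29 ± 0.750 to 1.19 ± 0.341 CPM (SD, n = 3). NGFR in VCaP held 16 counts with NSI and 9 with siFOXA1. KRT15 in PC3 was 22.4 ± 3.58 CPM with NSI and 20.7 ± 0.857 CPM with siFOXA1. KRT15 rose in VCaP from 0.0974 ± 0.0727 CPM (SD, n = 3) to 0.504 ± 0.0796 CPM (log2 fold change 2.39, SE 0.44, adjusted p = 0.0018, edgeR). NGFR rose in PC3 (log2 fold change 1.71, SE 0.30, adjusted p = 0.0041, edgeR), from 101 counts over the 3 NSI libraries to 314 over the siFOXA1 libraries.

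The 4 luminal markers given here (KRT8, KRT18, KLK3 and HOXB13) summed to 695 to 826 CPM in PC3 with NSI and 622 to 655 with siFOXA1, and to 612 to 732 and 564 to 624 CPM in VCaP. In PC3 KRT8 went against that sum, at 126 ± 14.5 CPM (SD, n = 3) with NSI and 169 ± 12.2 with siFOXA1. KRT18 was 273 ± 45.6 and 193 ± 15.5 CPM there, and HOXB13 356 ± 8.73 and 274 ± 12.2. In VCaP the mean of KRT8 was also higher with siFOXA1, with overlapping groups, and those of KRT18, KLK3 and HOXB13 were lower. KLK3 (0.00726 CPM with NSI) was near 0 in PC3. Summed fibroblast markers were 29.1 to 34.8 CPM in PC3 with NSI and 48.5 to 53.4 with siFOXA1, led by COL1A1, and 11.1 to 20.6 and 1.69 to 7.67 CPM in VCaP. By their PC3 means COL1A1, COL1A2, COL3A1 and DCN were higher with siFOXA1, and LUM, PDGFRA and PDGFRB were lower. In VCaP LUM differed most, at 10.5 ± 2.68 CPM with NSI and 0.667 ± 0.0831 with siFOXA1. Summed leukocyte markers were 26.8 to 29.3 and 44.8 to 50.3 CPM in PC3, nearly all CD68, and 0.903 to 1.14 and 2.64 to 3.20 CPM in VCaP. Summed endothelial markers, 3 of 4 found, were 24.2 to 32.8 and 21.1 to 25.9 CPM in PC3 and 4.01 to 4.70 and 1.77 to 2.12 CPM in VCaP. Summed neuroendocrine markers were 1.18 to 1.52 and 2.59 to 3.31 CPM in PC3 and 38.8 to 50.3 and 29.0 to 38.8 CPM in VCaP. The part of these markers in the differences of the 8 genes was not tested.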

How the data were processed

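The authors deposited 1 table of expected counts per gene for each of 12 libraries. Per the file headers, these were made with featureCounts from Subread 2.0.0 on GRCh37 with the GENCODE v28lift37 basic annotation, keeping fragments with both ends mapped and splitting multi-mapped and overlapping reads into fractions, without strand in PC3 and on the reverse strand in VCaP. STAR 2.7.3a aligned the reads, per the submitters' processing notes. Groups and replicate numbers came from the sample titles.

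Counts were rounded to whole numbers, genes were filtered with filterByExpr, and TMM factors (0.959 to 1.04) and edgeR 4.0.16 quasi-likelihood tests (two-sided, Benjamini-Hochberg over all genes tested, called under 0.05) were run in R 4.3.3 on the 6 libraries of each line, and on all 12 for the baseline and for differences between lines. Intervals are 95%. DESeq2 1.42.0 was an alternative, as were other factors and filters, counts rounded down, a replicate block and leaving out each library. The main fits held no replicate block. The main PC3 errors, intervals, adjusted p-values and calls therefore leave out the pairing of PC3 libraries described below. On simulated data with 200 genes changed 2-fold, 60.5% were recovered among 26435 genes in PC3, 77% among 22925 in VCaP and 64.5% among 30425 for the difference. False calls made up 7.63%, 7.23% and 4.44% of the genes called there. In PC3 and VCaP this share lay above the 0.05 that the threshold sets. For the difference, the changed genes were drawn only from those averaging above 1 CPM, and all genes were given the same spread. Its rates are therefore not comparable with those of PC3 and VCaP.

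The members and the gene lists were chosen with earlier results of these data known. Some genes of the lists are not reported here and were left out of the list counts and sums. Named genes were the members, FOXA1, all anchoring partners, TP63, up to 3 called genes with the largest change per other list and line, and the 5 genes most correlated with COL17A1. Genes averaging 1 CPM or more gave same-number correlations of deviations of 0.446, 0.589 and 0.251 in PC3 (0.151, 0.308 and 0.0948 over all genes tested), so the numbers were taken to pair the PC3 libraries, and 0.109, 0.0347 and 0.391 in VCaP, where they were not. The mean correlations with other numbers were -0.0966, -0.429 and -0.0521 in PC3 and -0.0112, 0.0027 and -0.247 in VCaP. Each same-number value was thus the higher in VCaP too, and leaving VCaP unpaired was a choice. Sequences are RefSeq's, from GRCh38.p14. The stretches before the outermost starts of COL17A1 and LAMB3 were matched to GRCh37 only to leave out bases that exons of the files' annotation cover. The short stretches around the AP-1 matches were not trimmed in this way and may hold exon bases. Those of LAMA3 lie outside the longest exon-free part of their window.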

Additional observations from a re-analysis of the deposited data

Results flagged for a closer look

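The interaction between siRNA and cell line was tested with edgeR's quasi-likelihood test over 12 libraries. Among the 8 hemidesmosome genes and the tested anchoring partners, it called 5 responses different between VCaP and PC3. Over all 30425 genes tested, 22.2% were called. Genes of the other lists were called too, such as ITGA2 and TSPAN8 above, and are not repeated here. The values are VCaP log2 fold change minus PC3 log2 fold change. Among the 8 hemidesmosome genes, which were chosen with these responses known, they were 6.04 for COL17A1 (SE 0.16), 1.74 for LAMB3 (SE 0.19), 1.11 for ITGB4 (SE 0.23) and -1.74 for LAMA3 (SE 0.20). Among the anchoring partners, the difference was -2.21 for KRT14 (SE 0.54, adjusted p = 0.0076). KRT14 held only 17 and 41 counts in the 2 PC3 groups. Cell line, dose, medium, kit and strand counting cannot be told apart in any of these differences.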

How the results depend on the processing

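Of 82 results for single genes, 52 kept their direction and their side of the threshold under every alternative run, and of 1430 values 1346 did so, 33 lost a call, 21 gained one and 30, none of them called, changed sign. The members called in PC3 numbered 3, and 5 with the replicate block or with library size alone. The list genes called in PC3 numbered 27, 15 to 27 with 1 library left out and 24 to 36 under the other alternatives, the highest with the replicate block. In VCaP 5 to 6 members and 29 to 40 list genes were called across alternatives. All 8 baseline differences and 4 line differences of members were called throughout.

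Sign changes stayed near 0. ITGB1 in VCaP (-0.01) was 0.0239 with all 12 libraries in one fit, 0.0407 with upper-quartile factors, 0.0226 for genes averaging 1 CPM or more and -0.0587 to 0.0188 with a library left out. PLEC's line difference (0.03) was -0.0108 for genes averaging 1 CPM or more, -0.0643 with library size alone, -0.0062 with DESeq2's test or with its size factors, and -0.11 to 0.12 with a library left out. COL7A1's line difference (-0.01) was 0.00087 with the replicate block and -0.21 to 0.14 with a library left out. With a library left out, ITGA6 in PC3 was -0.16 to 0.0106, CD151 in PC3 -0.21 to 0.0623, COL7A1 in PC3 -0.0016 to 0.29, CD151 in VCaP -0.0357 to 0.13, COL7A1 in VCaP -0.0764 to 0.29, ITGA3 in VCaP -0.0481 to 0.24, ITGA6's line difference -0.0426 to 0.21 and CD151's -0.0049 to 0.23. The cause was not tested.

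Over all genes, PC3 calls numbered 3955 higher and 3194 lower, 5734 and 5563 with the replicate block, 4583 and 2551 with library size alone, and 2425 and 1520 without the first siFOXA1 library. The median baseline difference of all genes moved from -0.03 to between -0.20 (TMM factors before the filter, an alternative chosen after seeing the data) and 0.27 (upper-quartile factors). In VCaP the replicate numbers were not taken to pair the libraries, though those numbered 3 correlated at 0.391. The block left 5 members called there. COL17A1 and LAMB3 in VCaP rest on 8 to 11 and 26 to 28 counts per NSI library, which limits the precision of their fold changes.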
